A study of Mus musculus with 12 samples.

Results

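Granins and neuropeptides of the pancreatic islet were examined through the probes of 10 listed genes, of which 9 have a probe. The arrays hold 17305 named genes in all. The 9 are the granins Chga, Chgb, Scg2, Scg3 and Scg5 and the peptide genes Cartpt, Npy, Gal and Ucn3. The genes were chosen from results of these same 12 arrays in all 4 genotypes, so their differences between genotypes are given as a description. No p-value of a single member is printed. Counts of members past a limit stand beside the share of all probes past it, apart from counts under other settings in the last section. The probes were found by matching the transcript accession on the array to its RefSeq symbol, which gave 10 probes of 41174, 2 of them for Cartpt. Vgf, a granin-like gene, has no probe that matched, and is not analysed here.

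Granins are acidic proteins of the secretory granule. They help to sort and condense hormones in beta, alpha and other neuroendocrine cells, and some are cut into shorter peptides that are released together with the hormone. The neuropeptides of the islet come from nerve endings and from the endocrine cells themselves, and many are known to change insulin or glucagon release. Several of these genes carry a cAMP response element near the start of transcription.

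Islets of 4 genotypes on a mixed C57BL/6 and Sv129 background were hybridized: wild type (WT), knockout of the PPARg2 isoform alone (PPARg2KO), leptin-deficient obese mice (ob/ob) and POKO mice, which carry the ob mutation and also lack PPARg2. The mice were female and ate chow, and their age is 4 weeks in the labels and 5 weeks in the published text. Each genotype had 3 one-colour arrays, each hybridized with RNA from a pool of several mice whose islets were picked by hand and kept overnight in culture, so the spread below is between pools. Both losses are carried in the germline, so neither was restricted to the islet.

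The median processed signal of an array lay between 20.9 and 40.6, and the arrays had 54.3 to 64.9% of their spots well above background. The 3 slides each held 1 array of every genotype, and a genotype always sat at the same position of the slide, so position and genotype cannot be told apart. The probe of Pparg read 8.85 to 8.98 in WT and 8.54 to 9.77 in ob/ob on the log2 scale, and 6.60 to 7.44 in PPARg2KO and 6.41 to 7.14 in POKO, in the direction of the labels. The probe of Lep was not well above background on any of the 12 arrays and checks nothing here. Signals are log2 values after quantile normalization, given as mean ± SD with n = 3 arrays per genotype, and levels of different probes are not compared with each other.

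Summed linear signals of marker genes set the frame for what follows, as the plot of marker sums shows. The 8 acinar markers summed to between 1886198 and 2428698 on all 12 arrays, so RNA of exocrine cells was present in every pool. The sum of the 6 beta cell markers was 627763 to 853194 in WT, 736097 to 828698 in PPARg2KO, 861732 to 916044 in ob/ob and 801457 to 828273 in POKO. The 9 lymphocyte markers summed to 411 to 434 in WT, 247 to 4048 in PPARg2KO, 3280 to 4575 in ob/ob and 2242 to 5021 in POKO. Of the 7 neuron markers, 2 were well above background on all arrays, and the sum was 224 to 495 in WT, 264 to 415 in PPARg2KO, 471 to 661 in ob/ob and 306 to 381 in POKO. In such bulk samples, fewer cells of a type and less RNA per cell cannot be told apart.

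**Figure D1:**
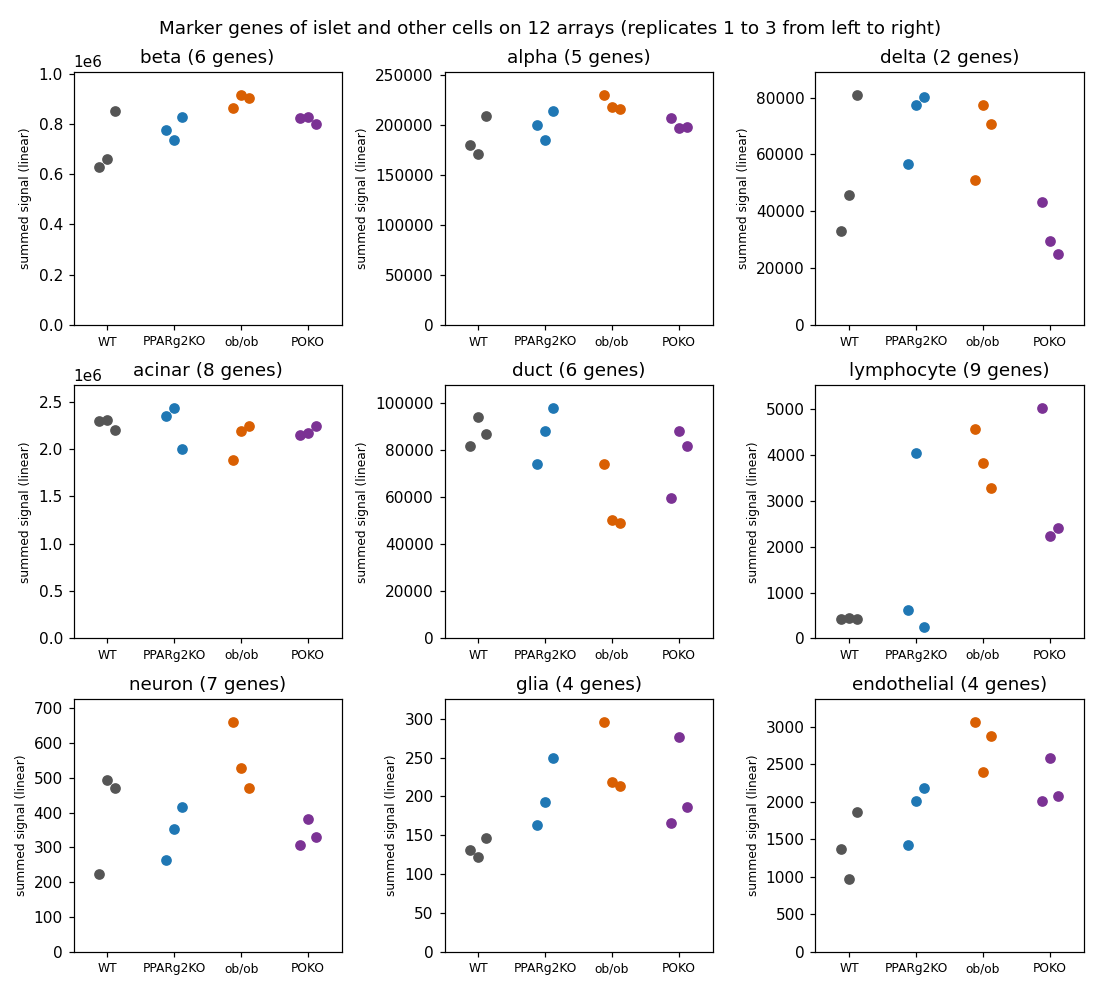
Summed linear signal (y axis, arbitrary scanner units after quantile normalization) of the marker genes of 9 cell types on each array, by genotype (x axis); each point is 1 array. The acinar sum was at least 1886198 on every array, and the lymphocyte sum was 434 or less in WT and at least 2242 in ob/ob and POKO.

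Promoter sequences are shown for the genes whose signal differed most with leptin and for Ucn3, which went the other way in POKO. Each is the 250 bases before the annotated start of transcription, from RefSeq (build GRCm38.p6), 5′ to 3′ in the direction of the gene. Capitals mark the full cAMP response element, TGACGTCA, where the window holds it. Cartpt lies on the minus strand at chr13:99900684-99900933, Scg2 on the minus strand at chr1:79440027-79440276, Chgb on the plus strand at chr2:132781392-132781641, and Ucn3 on the minus strand at chr13:3945350-3945599.
Cartpt: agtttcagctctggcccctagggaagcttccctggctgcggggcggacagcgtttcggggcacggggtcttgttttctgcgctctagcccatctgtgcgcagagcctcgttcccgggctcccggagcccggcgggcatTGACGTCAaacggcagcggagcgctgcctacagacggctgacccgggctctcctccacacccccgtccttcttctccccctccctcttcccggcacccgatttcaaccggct
Scg2: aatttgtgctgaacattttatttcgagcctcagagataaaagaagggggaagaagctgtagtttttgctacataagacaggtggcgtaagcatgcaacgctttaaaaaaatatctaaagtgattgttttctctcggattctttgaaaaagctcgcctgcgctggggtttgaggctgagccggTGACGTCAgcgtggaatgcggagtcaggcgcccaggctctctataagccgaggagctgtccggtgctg
Chgb: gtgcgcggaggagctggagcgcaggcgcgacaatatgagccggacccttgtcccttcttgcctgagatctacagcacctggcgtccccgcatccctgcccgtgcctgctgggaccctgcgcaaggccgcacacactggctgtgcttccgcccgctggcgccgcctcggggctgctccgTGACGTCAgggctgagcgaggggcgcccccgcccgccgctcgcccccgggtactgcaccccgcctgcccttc
Ucn3: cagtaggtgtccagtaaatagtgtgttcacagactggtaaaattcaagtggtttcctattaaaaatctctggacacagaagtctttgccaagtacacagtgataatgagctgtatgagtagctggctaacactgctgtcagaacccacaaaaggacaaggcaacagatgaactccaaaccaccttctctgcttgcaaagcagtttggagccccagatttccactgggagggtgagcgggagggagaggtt

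The full element stood 112 bases before the start in Cartpt, 68 in Scg2 and 72 in Chgb, counted to its first base. Of the 9 measured genes, all with a promoter in the RefSeq table, those 3 held it, and 508 of 32851 promoters of the same length did (1.55%). The shorter site TGACG, searched on both strands and also part of every full element, was found in 6 of the 9 (the same 3 and Chga, Scg3 and Scg5) and in 17.8% of all promoters. A TATAA box, in either direction, was found in Scg2 alone among the 9 and in 22.8% of all promoters. The direct repeat AGGTCANAGGTCA, which PPAR and RXR can bind, was found on neither strand of these 9 windows and in 0.0335% of all promoters. These are matches of letters in 1 window per gene, and binding was not measured.

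Chgb, Scg2 and Scg3, 3 of the 5 granins with a probe, had higher signals on every leptin-deficient array (ob/ob and POKO) than on every array with leptin (WT and PPARg2KO). Of all probes 1.57% had. Chga and Scg5 were also higher in ob/ob than in WT without overlap, as were 11.3% of all probes. Cartpt, which encodes cocaine- and amphetamine-regulated transcript, went the same way with the widest range of genotype means, 3.41 on the log2 scale. Gal and Npy were lower in ob/ob than in WT on average, and Ucn3 was lower in POKO than in each of the other genotypes.

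**Figure D2:**
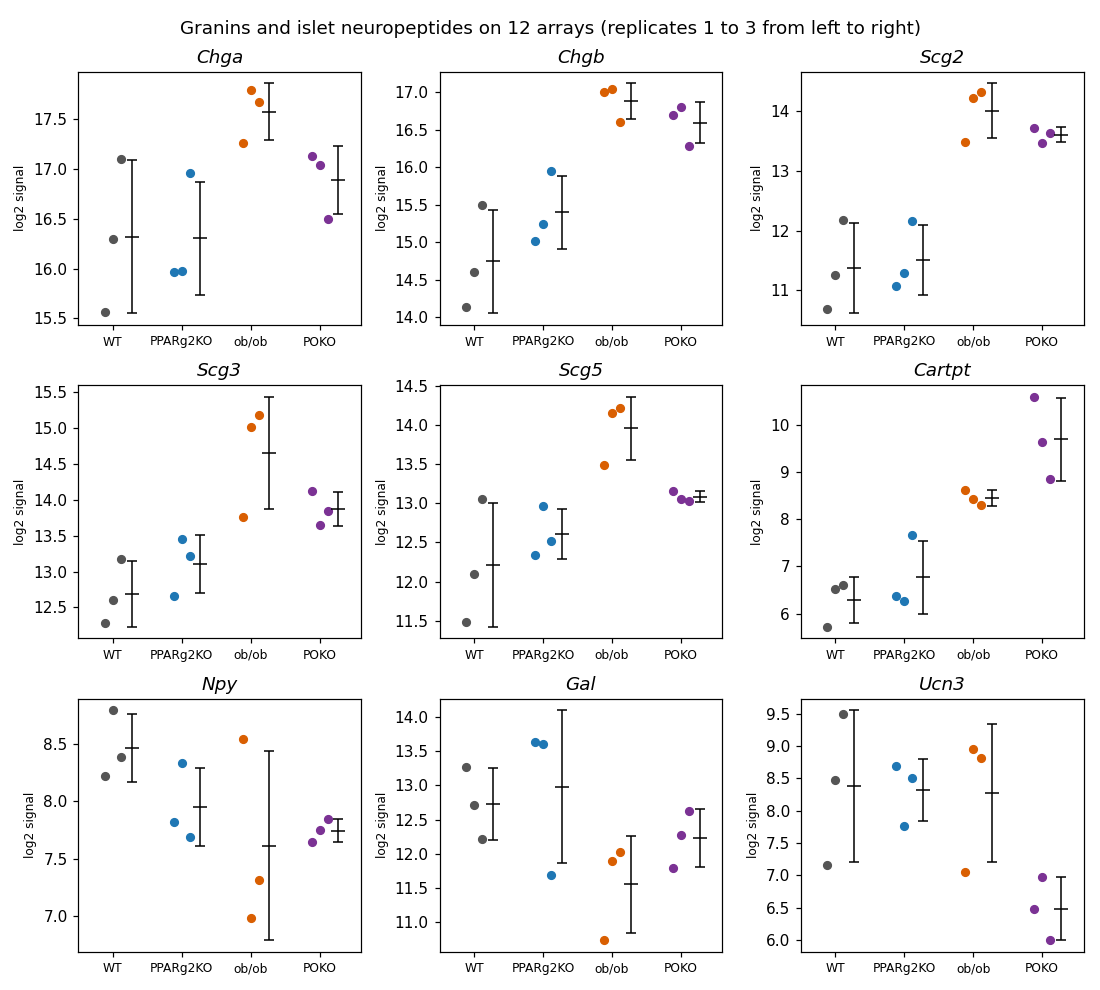
Log2 signal (y axis) of the brightest probe of each of the 9 genes in the 4 genotypes (x axis); points are the 3 arrays, in the order of replicates 1 to 3, and bars give mean ± SD. Chgb, Scg2, Scg3 and Cartpt lie higher on all 6 leptin-deficient arrays than on the 6 arrays with leptin, and Ucn3 lies lowest on the 3 POKO arrays.

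Scg2 encodes secretogranin II, the precursor of secretoneurin. Its log2 signal on replicates 1, 2 and 3 was 10.68, 11.25 and 12.18 in WT, 11.07, 11.29 and 12.17 in PPARg2KO, 13.48, 14.23 and 14.32 in ob/ob and 13.72, 13.47 and 13.63 in POKO. All 6 leptin-deficient arrays were above all 6 others, while WT and PPARg2KO overlapped, as did ob/ob and POKO. The genotype means were 11.37 ± 0.76, 11.51 ± 0.58, 14.01 ± 0.46 and 13.61 ± 0.13. The difference was 2.64 (SE 0.41) between ob/ob and WT and 2.09 (SE 0.41) between POKO and PPARg2KO on the log2 scale, the largest of the granins in both comparisons.

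Chgb encodes chromogranin B, a core protein of the granule. Its signal on replicates 1 to 3 was 14.14, 14.60 and 15.50 in WT, 15.02, 15.24 and 15.95 in PPARg2KO, 17.00, 17.04 and 16.61 in ob/ob and 16.70, 16.80 and 16.29 in POKO. The leptin-deficient arrays were again all above the rest, and POKO and ob/ob overlapped. ob/ob exceeded WT by 2.14 (SE 0.35) and POKO exceeded PPARg2KO by 1.19 (SE 0.35). PPARg2KO was above WT on all 3 slides, by 0.88, 0.65 and 0.46, but the groups overlapped and the 95% interval of that difference, from -0.13 to 1.46, holds 0.

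Scg3 encodes secretogranin III, which links chromogranin A to the granule membrane. Its signal was 12.28, 12.60 and 13.18 in WT, 12.66, 13.45 and 13.22 in PPARg2KO, 13.76, 15.02 and 15.19 in ob/ob and 14.13, 13.65 and 13.84 in POKO. The 2 sets of 6 arrays did not overlap, although the lowest POKO array exceeded the highest PPARg2KO array by little. The difference was 1.97 (SE 0.39) between ob/ob and WT and 0.76 (SE 0.39) between POKO and PPARg2KO.

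Scg5 encodes the chaperone 7B2, which the convertase encoded by Pcsk2 needs for its maturation. Its signal was 11.49, 12.10 and 13.06 in WT, 12.34, 12.96 and 12.52 in PPARg2KO, 13.49, 14.15 and 14.22 in ob/ob and 13.16, 13.06 and 13.03 in POKO. Here ob/ob lay above the other 3 genotypes without overlap, and POKO overlapped WT through WT replicate 3. ob/ob exceeded WT by 1.73 (SE 0.36), and POKO exceeded PPARg2KO by 0.47 (SE 0.36). The difference between POKO and ob/ob was -0.87 (SE 0.36). POKO was lower on all 3 slides, which follows from the arrays not overlapping.

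Chga encodes chromogranin A, the source of pancreastatin and vasostatin. Its signal was 15.56, 16.30 and 17.10 in WT, 15.97, 15.98 and 16.96 in PPARg2KO, 17.26, 17.80 and 17.68 in ob/ob and 17.13, 17.04 and 16.50 in POKO. The ob/ob arrays were above all others, and the other genotypes overlapped each other. The difference was 1.26 (SE 0.40) between ob/ob and WT, the smallest of the granins, and 0.59 (SE 0.40) between POKO and PPARg2KO.

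Within 1 genotype, the order of the 3 arrays was the same for all 5 granins in WT alone. In WT, replicate 1 had the lowest and replicate 3 the highest signal for 5 of 5 granins, and replicate 3 also had the highest signal for 5 of 5 hormone genes (Ins1, Ins2, Gcg, Sst and Ppy). In PPARg2KO, replicate 1 was lowest for 5 of 5 granins, and the highest was replicate 2 for 2 and replicate 3 for 3. In ob/ob, replicate 1 was lowest for 4 of 5, and the highest was replicate 2 for 2 and replicate 3 for 3. In POKO, replicate 1 was highest for 4 of 5, and the lowest was replicate 2 for 2 and replicate 3 for 3. The mean log2 signal of the 5 hormone genes was 16.64, 16.72 and 17.42 in WT, 17.21, 17.27 and 17.39 in PPARg2KO, 17.33, 17.46 and 17.47 in ob/ob and 17.11, 16.99 and 16.87 in POKO. It was thus low on the WT arrays where the granins were low.

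Relative to that hormone mean on the same array, a scale added after the values were seen, the granin differences between ob/ob and WT were 0.77 (Chga), 1.65 (Chgb), 2.15 (Scg2), 1.48 (Scg3) and 1.24 (Scg5). The hormone mean itself differed by 0.49. Between POKO and PPARg2KO the hormone mean differed by -0.30, and the granin differences on this scale were 0.89 (Chga), 1.49 (Chgb), 2.39 (Scg2), 1.06 (Scg3) and 0.77 (Scg5). Of the 5 hormone genes, Ins2 read 18.90 or 18.95 on all 12 arrays and so added next to no difference to this mean. As measured, the 95% intervals of POKO minus PPARg2KO held 0 for Chga (-0.33 to 1.5), Scg3 (-0.12 to 1.64) and Scg5 (-0.34 to 1.29). The parts of the lymphocyte and exocrine RNA in these differences were not tested.

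**Figure D3:**
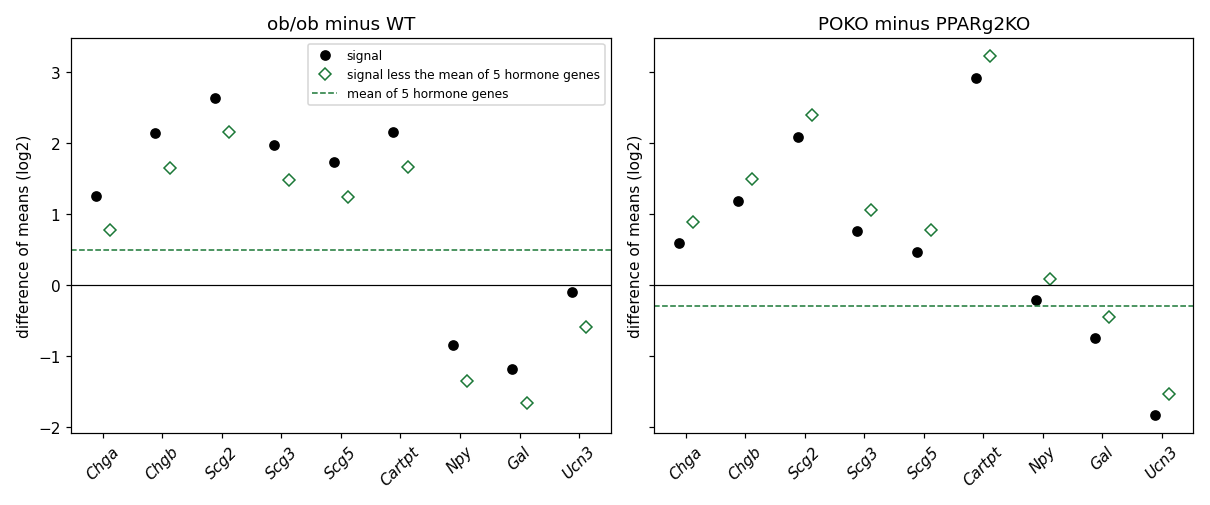
Difference of genotype means on the log2 scale (y axis) for the 9 genes (x axis), as measured (filled circles) and less the mean of 5 hormone genes on the same array (open diamonds), for ob/ob minus WT (left) and POKO minus PPARg2KO (right); the dashed line is the hormone mean. The differences of means are above 0 on both scales in both panels for the 5 granins and Cartpt, and the errors are not drawn.

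Cartpt encodes the precursor of CART peptides, which act in appetite control and are known in islet endocrine cells and nerve fibres. The brighter of its 2 probes read 5.72, 6.52 and 6.61 in WT, 6.38, 6.26 and 7.66 in PPARg2KO, 8.62, 8.43 and 8.30 in ob/ob and 10.59, 9.63 and 8.85 in POKO. The order of the genotypes was WT, PPARg2KO, ob/ob and POKO, and of these neighbours WT and PPARg2KO alone overlapped. POKO exceeded WT by 3.41 (SE 0.49), PPARg2KO by 2.92 (SE 0.49) and ob/ob by 1.24 (SE 0.49), and ob/ob exceeded WT by 2.16 (SE 0.49).

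POKO exceeded ob/ob in Cartpt on each slide, by 1.97, 1.21 and 0.56, where the sign follows from the arrays not overlapping. The other probe gave 2.17 (SE 0.48) for ob/ob minus WT and 3.39 (SE 0.48) for POKO minus WT. The size of the Cartpt differences depended on the background correction: after normexp correction with an offset of 50 the difference was 0.87 between ob/ob and WT and 1.76 between POKO and WT. The neuron markers summed to 224 to 495 in WT and 306 to 381 in POKO, and 5 of the 7 were not well above background on all arrays. The 4 glia markers summed to 122 to 147 in WT, 163 to 249 in PPARg2KO, 214 to 296 in ob/ob and 166 to 276 in POKO. Their part in the Cartpt values was not tested.

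Among 13035 other named genes that were well above background on all arrays of a genotype, the 5 whose centred log2 signal over the 12 arrays was nearest to that of Cartpt were Aldh1a3, F10, Cck, Ifit2 and Igfbp3. The root mean square difference from Cartpt was 0.68 for Aldh1a3, 0.72 for F10 and 0.75 for each of the other three, against a median of 1.5 over all genes compared. Aldh1a3, a retinaldehyde dehydrogenase, had means of 6.59 in WT, 6.94 in PPARg2KO, 9.32 in ob/ob and 9.04 in POKO. Of the 5, F10 and Cck shared with Cartpt a POKO mean above that of ob/ob by over 1, at 7.91 against 6.89 and 12.03 against 10.32.

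Ucn3 encodes urocortin 3, a peptide of mature mouse beta cells that acts on CRHR2 of delta cells and so on somatostatin release. Its signal was 7.16, 8.48 and 9.50 in WT, 8.69, 7.77 and 8.50 in PPARg2KO, 7.05, 8.96 and 8.82 in ob/ob and 6.48, 6.98 and 6.00 in POKO. All 3 POKO arrays were below the other 9, and the other 3 genotypes overlapped with means of 8.38 ± 1.17, 8.32 ± 0.48 and 8.28 ± 1.07. POKO differed by -1.89 from WT, -1.83 from PPARg2KO and -1.79 from ob/ob (SE 0.66 each). That POKO was lower on all 3 slides in each comparison follows from this separation of the arrays. After normexp correction the differences were -1, -0.9 and -0.94 in the same order.

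The spread of Ucn3 in WT and ob/ob was wide, and replicate 1 was the lowest array in both. The 2 delta cell markers, Sst and Hhex, had a summed signal, nearly all of it of Sst, of 24786 to 43119 in POKO, 32919 to 80985 in WT, 56782 to 80075 in PPARg2KO and 51015 to 77475 in ob/ob. For Sst, POKO differed by -0.66 from WT, with overlapping arrays, and by -1.17 from PPARg2KO and -1.06 from ob/ob, without overlap (SE 0.34 each). For Hhex the differences were -0.24, -0.39 and -0.31 (SE 0.24 each) with overlap, and neither gene was called in these comparisons (limma). The beta cell sum was 801457 to 828273 in POKO and 736097 to 828698 in PPARg2KO. In POKO minus WT 3 of the 6 beta cell markers had a positive difference, Ins1 (0.64, SE 0.28), Ins2 (0.02, SE 0.06) and Nkx6-1 (0.24, SE 0.28). The other 3 had a negative one, Pdx1 (-0.48, SE 0.25), the glucose transporter gene Slc2a2 (-1.56, SE 0.50) and Mafa (-1.95, SE 0.82). None of the 6 was called, with adjusted p from 0.173 to 0.899 (limma). The part of a change in cell composition in the Ucn3 values was not tested.

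Gal encodes galanin, a peptide of islet nerve endings that inhibits insulin release. Its signal was 13.27, 12.71 and 12.22 in WT, 13.64, 13.61 and 11.70 in PPARg2KO, 10.74, 11.90 and 12.03 in ob/ob and 11.79, 12.28 and 12.63 in POKO. The ob/ob arrays were all below the WT arrays, as they were for 12301 of 41174 probes. On the 3 slides ob/ob was lower by 2.53, 0.81 and 0.19. Genotypes next to each other in the order of means all overlapped. The difference was -1.18 (SE 0.56) between ob/ob and WT and -0.75 (SE 0.56) between POKO and PPARg2KO, both with 95% intervals that hold 0.

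Npy encodes neuropeptide Y, which is present in sympathetic fibres and in immature or stressed beta cells and restrains insulin release. Its signal was 8.22, 8.79 and 8.38 in WT, 7.82, 8.33 and 7.69 in PPARg2KO, 8.54, 6.98 and 7.31 in ob/ob and 7.64, 7.75 and 7.84 in POKO. Npy had the smallest range of genotype means of the 9 genes, 0.85, and the 3 gaps between neighbouring genotypes were all within the overlap of their arrays. ob/ob minus WT was -0.85 (SE 0.36) with the arrays overlapping through ob/ob replicate 1, which at 8.54 exceeded 2 of the 3 WT arrays.

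In the fit over all 41174 probes, 5 of the 9 genes were past an adjusted p of 0.05 and higher in ob/ob than in WT (Chgb, Scg2, Scg3, Scg5 and Cartpt), where 4.92% of all probes were called higher. The same 5 were called higher with leptin deficiency averaged over both PPARg2 states, where 4.23% of all probes were. In POKO minus WT 1 gene, Cartpt, was called higher beside 0.163% of all probes, and with the replicate block, that is with slide as a term of the fit, 0 were. Because the list was drawn up with these contrasts known, nothing is read from these counts. The same holds for the medians in ob/ob minus WT, 1.73 over the 9 genes and -0.08 over all probes.

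The overlap of arrays was counted as well. In ob/ob minus WT 6 of 9 genes had all ob/ob arrays above all WT arrays (11.3% of all probes did), and in POKO minus PPARg2KO 5 of 9 had (6.29%). Lower without overlap in ob/ob minus WT was 1 of 9, Gal, beside 12301 of 41174 probes. In POKO minus WT 4 of 9 were higher without overlap (9.23% of all probes) and 2 lower, Npy and Ucn3 (25.6%). Over all 12 arrays, 4 of 9 were higher in leptin deficiency without overlap (1.57%). In POKO minus ob/ob, 3 of 9 were lower without overlap (Chga, Scg5 and Ucn3), beside 8.93% of all probes.

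**Figure D4:**
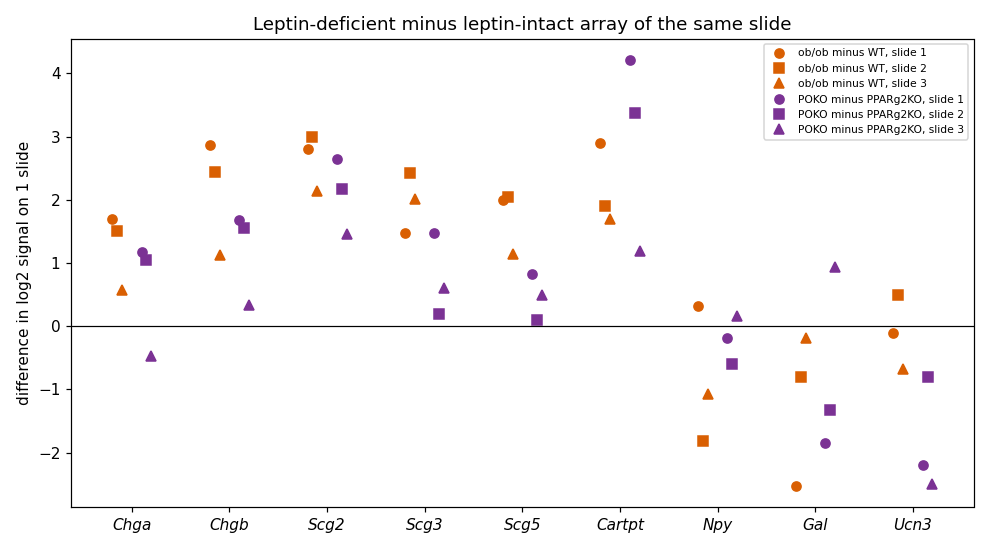
Difference in log2 signal between the leptin-deficient and the leptin-intact array of the same slide (y axis) for the 9 genes (x axis), for ob/ob minus WT and POKO minus PPARg2KO; each symbol is 1 slide and the line marks 0. The 5 granins and Cartpt lie above 0 on all 3 slides in ob/ob minus WT, and in POKO minus PPARg2KO all but Chga on slide 3 (-0.47) do. Where the compared arrays do not overlap, all 3 symbols must lie on the same side of 0.

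Within slides, ob/ob exceeded WT in all 3 slides for each of the 5 granins and Cartpt, which follows from their arrays not overlapping. The differences of Chgb were 2.86, 2.44 and 1.12, those of Scg2 2.80, 2.99 and 2.14 and those of Cartpt 2.90, 1.91 and 1.69. POKO exceeded PPARg2KO in all 3 slides for the same genes except Chga, which had 1.17, 1.05 and -0.47. Except for Chga, the arrays did not overlap in that comparison either, so these signs are no further support. The 3 differences of Cartpt there were 4.21, 3.37 and 1.19.

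Loss of PPARg2 with leptin present went with small differences. PPARg2KO minus WT ranged from -0.52 (Npy) to 0.66 (Chgb) over the 9 genes, the arrays overlapped for each of them, and 0 were past the adjusted limit or an unadjusted p of 0.05 (0% of all probes were called by limma, and 9.37% had an unadjusted p under 0.05). The 95% intervals were wide, for example -0.77 to 1.07 for Scg2 and -0.61 to 1.58 for Cartpt, so differences of about 1 on the log2 scale could not be told from 0. In POKO minus ob/ob all 5 granins were lower, by 0.29 (Chgb) to 0.87 (Scg5), as were 18888 of 41174 probes, and Cartpt was higher. The hormone mean also differed by -0.43. Relative to it the granin differences were -0.26 (Chga), 0.15 (Chgb), 0.03 (Scg2), -0.35 (Scg3) and -0.44 (Scg5). In POKO minus ob/ob 0 genes were called (0.00486% of all probes) and 3 had an unadjusted p under 0.05, as had 9.28% of all probes. Over both leptin states the PPARg2 difference called 0 genes (0% of all probes), with 1 of the 9 and 3.76% of all probes at an unadjusted p under 0.05.

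The difference between the leptin effects in the presence and the absence of PPARg2, the interaction, was negative for 5 of 5 granins, from -0.55 (Scg2) to -1.26 (Scg5), and positive for Cartpt (0.76). Of the 41174 probes 18131 had a negative one. The hormone genes did too, at -0.77 (Ins1), -0.02 (Ins2), -0.24 (Gcg), -1.57 (Sst) and -1.37 (Ppy). On the hormone scale the leptin difference was larger without PPARg2 for Chga (0.89 against 0.77) and Scg2 (2.39 against 2.15). It was smaller for Chgb (1.49 against 1.65), Scg3 (1.06 against 1.48) and Scg5 (0.77 against 1.24). The 5 granins share the same arrays, and the interaction of Scg2 was -0.2 without WT replicate 1 and -0.95 without WT replicate 3. The interaction called 0 of the 9 genes and 0% of all probes (1 of the 9 and 13.9% of all probes at an unadjusted p under 0.05). In POKO minus PPARg2KO 0 of the 9 genes were called, where 0.00971% of all probes were, and 4 had an unadjusted p under 0.05, as had 11.1% of all probes. WT and ob/ob arrays enter several of these comparisons, which are therefore not independent.

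Genes that make, store and answer to such peptides were taken from 5 lists with 81 measured genes, for which the fit's adjusted p-values are given. These lists too were written with earlier results of these data known, so the values and counts are a description and no independent test. In ob/ob minus WT 8 of the 81 rose and 2 fell past adjusted p 0.05, where 4.92% of all probes rose and 6.14% fell (limma, n = 3 per genotype). The median over the 81 genes was 0.27 and over all probes -0.08. The count changed with single arrays: it was 0 without WT replicate 1, WT replicate 2, ob/ob replicate 2 or ob/ob replicate 3, 4 without any 1 of the POKO arrays, and 23 without WT replicate 3. The share of all probes called in those fits is not given, and whether these counts follow it was not tested.

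The enzymes that cut and finish prohormones gave 3 rises and 1 fall among 11 genes. Cpe, the carboxypeptidase that trims the cut peptides, read 13.46, 14.09 and 14.96 in WT and 15.46, 16.06 and 16.21 in ob/ob and rose by 1.74 (SE 0.35, adjusted p = 0.0259). Pcsk1, the convertase that makes the first cut in proinsulin, read 10, 10.38 and 11.76 in WT and 12, 12.83 and 12.46 in ob/ob and rose by 1.72 (SE 0.44, adjusted p = 0.0407). Pam, which amidates peptides, rose by 1.40 (SE 0.32, adjusted p = 0.0336). Furin, the convertase of the trans-Golgi, fell by 0.55 on the log2 scale (SE 0.13, adjusted p = 0.0348) and is named although it is not among the 8 largest changes. Pcsk2, the partner of the Scg5 product, had a difference of 1.08 (SE 0.38) that did not pass (adjusted p = 0.0885). The second probe of Pcsk1 gave 1.16 and did not pass either (adjusted p = 0.0982).

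Of 14 granule membrane and exocytosis proteins 2 rose and 0 fell in ob/ob. Syt4, a synaptotagmin of dense-core granules, rose by 1.71 (SE 0.33, adjusted p = 0.0249), and Syt7, a calcium sensor of insulin exocytosis, by 1.52 (SE 0.33, adjusted p = 0.0292). The groups of arrays did not overlap in either gene. Syt7 read 11.77, 11.65 and 11.54 in POKO and 11.33, 11.71 and 11.68 in PPARg2KO, which overlapped.

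Of 30 other neuropeptide genes 2 rose in ob/ob, Nmb and Pomc. Nmb, which encodes neuromedin B, read 7.14, 7.10 and 7.33 in WT and 8.35, 9.20 and 9.88 in ob/ob and rose by 1.95 (SE 0.39, adjusted p = 0.0261). Pomc, the precursor of melanocortins and beta-endorphin, rose by 0.93 (SE 0.23, adjusted p = 0.0379). The median of the 30 was -0.05, beside -0.08 over all probes.

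Of 16 transcription factors of neuroendocrine genes, 1 rose and 1 fell. Rest, the repressor that keeps neuronal and granin genes silent outside neuroendocrine cells, fell by 0.70 on the log2 scale (SE 0.19, adjusted p = 0.0445). Its other probe gave -0.92 and did not pass (adjusted p = 0.0522, limma), but passed with leptin deficiency over both PPARg2 states (-0.69, adjusted p = 0.0495). In POKO minus PPARg2KO the first probe of Rest differed by -0.18, 0.21 and 0.22 on the 3 slides, and the other by -0.46 on average. Crem, which binds cAMP response elements, rose by 0.53 (SE 0.14, adjusted p = 0.0468). With the slide as a block its difference was 0.53 and not called (adjusted p = 0.0599). Of its 5 other probes, 4 were higher in ob/ob (0.57, 0.51, 0.50 and 0.29), of which 3 were called. The remaining one differed by -0.68, and 1 of the ob/ob arrays and 0 of the WT arrays read it well above background. Of the 10 receptors of the member peptides 0 were called (2 at an unadjusted p under 0.05, as had 31.1% of all probes). Crhr2, the receptor of urocortin 3, differed by -0.46 (SE 0.27, adjusted p = 0.277).

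Averaged over both PPARg2 states, 7 of the 81 genes rose with leptin deficiency and 0 fell, where 4.23% of all probes rose and 4.81% fell. The count was 3 or less without WT replicate 1 or 2, PPARg2KO replicate 1, ob/ob replicate 2 or 3 or any 1 of the POKO arrays, 11 without ob/ob replicate 1, 13 without PPARg2KO replicate 3 and 19 without WT replicate 3. For these fits, too, the share of all probes called is not given. Cck, which encodes cholecystokinin, had the largest rise, 2.25 (SE 0.40, adjusted p = 0.021). It read 8.82, 7.89 and 8.45 in WT, 9.07, 9.48 and 9.82 in PPARg2KO, 11.84, 9.74 and 9.39 in ob/ob and 12.25, 12.21 and 11.63 in POKO. ob/ob overlapped PPARg2KO in Cck, and POKO stood above all PPARg2KO arrays and all WT arrays.

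The other genes called there were Nmb (1.47, SE 0.28, adjusted p = 0.0233), Cpe (1.42, SE 0.24, adjusted p = 0.0195), Pcsk1 (1.19, SE 0.31, adjusted p = 0.047), Syt4 (1.04, SE 0.23, adjusted p = 0.0329), Pam (0.94, SE 0.23, adjusted p = 0.0388) and Crem (0.46, SE 0.10, adjusted p = 0.0328). In each of the 3 slides ob/ob exceeded WT for these genes and Cck, whose ob/ob arrays all lay above the WT arrays. POKO exceeded PPARg2KO on all 3 slides as well, apart from Syt4 (0.78, 0 and 0.35). Some of these differences were near 0, as for Nmb on slide 2 (0.09) and Pcsk1 (0.02) and Crem (0.08) on slide 3. Averaged over both states, the second probe of Pcsk1 gave 0.90 and did not pass (adjusted p = 0.0862, limma). The second probes of Cpe (1.29) and Syt4 (1.03) passed. In POKO minus PPARg2KO, POKO minus WT, POKO minus ob/ob and PPARg2KO minus WT, 0 of the 81 were called, and 10, 14, 12 and 6 had an unadjusted p under 0.05 (11.1%, 16.4%, 9.28% and 9.37% of all probes in the same order). In ob/ob minus WT, 7 of 9 lymphocyte markers rose past adjusted p 0.05 and 3 of 6 duct markers fell. Of all probes 4.92% rose and 6.14% fell. Also called there were 1 of 6 beta cell, 1 of 4 endothelial and 1 of 4 glia markers, which rose, and 1 of 4 glia markers, which fell. With leptin deficiency over both states, 7 of 9 lymphocyte, 2 of 4 endothelial and 1 of 4 macrophage markers rose (4.23% of all probes). There 2 of 6 duct markers fell (4.81% of all probes). Their part in these results was not tested.

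**Figure D5:**
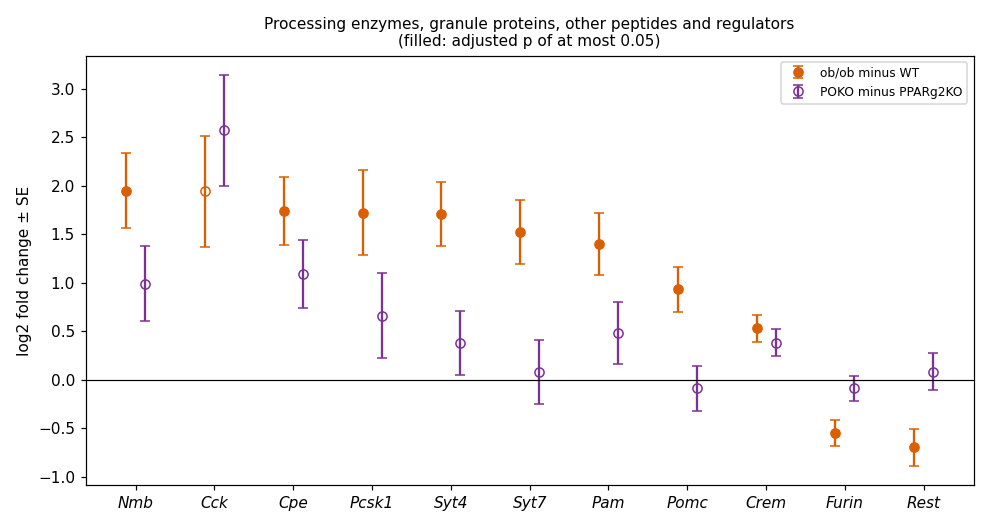
Log2 fold change ± SE (y axis) of the 11 genes called in ob/ob minus WT or with leptin deficiency over both PPARg2 states (x axis), for ob/ob minus WT and POKO minus PPARg2KO (n = 3 arrays per genotype); filled points passed an adjusted p of 0.05 in that comparison. In POKO minus PPARg2KO 0 of the 11 passed, and Cck had the largest difference, 2.57 (SE 0.57).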

How the data were processed

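RNA of islets from 4 genotypes was measured on 12 one-colour Agilent 4x44K arrays. Per the file headers and the labels, Feature Extraction 10.1.1.1 made the deposited processed signal, a background-subtracted intensity. The members and lists were chosen with earlier results of these data known. Here the 43379 spots of 41174 probes were normalized by quantiles and put on the log2 scale, 919 outlier spots were left out, 0 were saturated, and spots of a probe were averaged. RefSeq symbols were matched to 25097 probes. One limma 3.58.1 fit (R 4.3.3) with a mean per genotype gave all comparisons, with Benjamini-Hochberg adjustment over all probes and a limit of 0.05. The array as a block, named in the methods, cannot be fitted, since each array holds 1 sample. A gene is given by its brightest probe, and the text names all 9 measured members, from the lists at most 8 genes per comparison by size among those called and well above background, and the 5 genes nearest to the member of widest range. The deposited log2 table of the authors' normalized values was used as an alternative, and correlated with the values used here at r = 0.9997 on each array. The replicate number is the slide, per the file headers. Deviations of same-numbered arrays from their genotype means correlated at -0.322 to 0.276. The number of arrays limits the precision. The fit was tested on simulated data.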

Additional observations from a re-analysis of the deposited data

How the results depend on the processing

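Among the alternatives, the 9 members kept their direction for every called difference. Of the 72 fold changes (9 genes, 8 comparisons), 7, all of Cartpt or Ucn3, moved by over 1 SD of the replicates with normexp background correction and 11 on the hormone scale, and 0 with the others that were recomputed for them. Counts of called members in POKO vs. WT, 1 as reported, were 3 with the 75th percentile, 0 with normexp, 3 with a filter on dim probes (24297 probes kept), 0 with the compared groups alone, 0 with the replicate block, 5 with array weights and 5 at adjusted p 0.2. Over all probes the calls in POKO vs. WT were 80 as reported, 330 with the 75th percentile and 11 with normexp. The share of all probes called is not given for the other settings, and nothing is read from these member counts. In ob/ob vs. WT, 5 as reported, they were 1 with the compared groups alone and 8 at adjusted p 0.2. In POKO vs. PPARg2KO (0) they were 2 at adjusted p 0.2, and in POKO vs. ob/ob (0) 1 with array weights. Of the 81 list genes, the count in ob/ob vs. WT, 10, was 18 with the filter on dim probes, 0 with the compared groups alone, 29 with array weights, 6 with a fold criterion of 1 and 38 at adjusted p 0.2. With leptin deficiency over both states, 7, it was 20 with array weights and 29 at adjusted p 0.2. In POKO vs. WT, 0, it was 1 with the 75th percentile, 1 with the filter on dim probes, 3 with the compared groups alone, 9 with array weights, 1 with the authors' normalized values and 7 at adjusted p 0.2. In POKO vs. ob/ob it was 5 with array weights, and in POKO vs. PPARg2KO 1 at adjusted p 0.2. With each array left out in turn, member counts ran from 0 to 6 (ob/ob vs. WT), 0 to 3 (POKO vs. WT), 0 to 2 (POKO vs. PPARg2KO) and 3 to 7 (leptin deficiency), and list counts from 0 to 23, 0 to 2, 0 to 1 and 0 to 19 in the same order, and 0 to 3 for the interaction. Member counts in ob/ob vs. WT fell to 2 without WT replicate 1, 0 without WT replicate 2, 0 without ob/ob replicate 2 and 1 without ob/ob replicate 3. With leptin deficiency, Chgb, Scg2 and Cartpt stayed called whichever of the 12 arrays was left out, and Scg3 and Scg5 stayed called in 4 of the 12 cases. The members were chosen from these same arrays, so staying called is no independent support. Cartpt in POKO vs. WT stayed called in 5 of them, and was lost without WT replicate 1 or 2, any 1 ob/ob array or POKO replicate 1 or 2. With the replicate block no other call count of members or lists moved by over 1.5 times, Crem was not called in ob/ob vs. WT (adjusted p = 0.0599), and Syt7 was called with leptin deficiency (0.80, adjusted p = 0.0475). With the 75th percentile the median difference over the whole array in ob/ob vs. WT was -0.19 in place of -0.08, and 55.0% in place of 44.5% of calls were higher (POKO vs. WT: 94.8% in place of 83.8%, and 63.6% with normexp). The causes of these shifts were not tested.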
